A study of Mus musculus with 7 samples.

Results

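Club and goblet cells of the airway epithelium secrete the proteins that line the conducting airways, and 10 of their genes were followed here in the lungs of bleomycin-challenged mice: the secretoglobins Scgb1a1, Scgb3a1 and Scgb3a2, the BPI-fold proteins Bpifa1 and Bpifb1, the gel-forming mucins Muc5b and Muc5ac, the lectin Reg3g, the mucin-folding protein Agr2 and the transcription factor Spdef. They were chosen by name among the 55401 genes of the count table, and all 10 passed the filter on low counts, as did 17465 genes in all. The sequenced RNA came from right lung lobes of 4 mice given bleomycin (BLM) and of 3 given bleomycin and hyperbaric oxygen (BLM+HBO), with each mouse giving a single library. All 7 were male C57BL/6 mice aged 6 to 8 weeks that had received bleomycin once into the trachea, and all lungs were taken on day 21. The BLM+HBO mice breathed oxygen at 2.5 ATA for 90 min on each of 14 days, starting on day 7. Whether the BLM mice were placed in the chamber without pressure or left untreated was not settled, since the labels and the methods differ. No lung without bleomycin was sequenced, mice that lost too little weight after bleomycin had been left out by the study as failed models, and no gene here is measured in a sorted airway cell.

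Club cells are the main secretory cells of mouse bronchioles. They carry out xenobiotic metabolism through cytochrome P450 enzymes, release secretoglobins into the lining fluid, and act as progenitors after airway injury. Goblet cells store mucins in granules, and in the mouse most intrapulmonary mucus cells arise when club cells take on mucin production under the factor SPDEF, a change known as mucous metaplasia. MUC5B is the mucin of the resting mouse airway, while MUC5AC is mostly made on provocation by allergen or infection.

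The libraries held between 18157161 and 26365969 counts. BLM+HBO 2 stood apart from the other BLM+HBO mice: a chi-square of its counts per gene was 57.5 against BLM+HBO 3 and 64.3 against BLM+HBO 1, but 13.0 to 34.3 against the BLM mice. It was nearer to BLM 4 (13.0) than any 2 mice of the same group were to each other (lowest 22.1), so its counts stand nearer to the other group than its label says, and whether the label is right was not tested. Every group mean and call below rests on the labels as given, and the calls are also given without this library. No library repeated another. The P values set the difference between the groups against the spread between these mice, which is estimated for each gene with help from the other genes. By edgeR's quasi-likelihood test 1098 genes passed the thresholds of the study (fold change above 1.5 and unadjusted P below 0.05), and 0 had an adjusted P (Benjamini-Hochberg) below 0.05, where 1861 had an unadjusted P below 0.05. DESeq2 gave 128 genes at that adjusted P and limma-trend 0. A gene is called higher or lower below only in the sense of the unadjusted thresholds. RNA of heart muscle was also higher in the BLM+HBO libraries, where 11 of 12 heart muscle genes were called higher and their summed level was 194 to 760 CPM (counts scaled to the size of the library) against 78.5 to 202 CPM in BLM. By comparison, 3.4% of all tested genes were called higher. The part of heart muscle RNA in the results was not tested.

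The sequences just upstream of 5 of the genes with a lower estimate in BLM+HBO are shown first, so that the promoters of genes with the same sign can be set side by side. Each is the 250 bases before the RefSeq transcription start in GRCm38.p6, read 5′ to 3′ on the strand of the gene, with matches to 8 short motifs in capitals.
Scgb3a1 (chr11:49663345-49663594, plus strand): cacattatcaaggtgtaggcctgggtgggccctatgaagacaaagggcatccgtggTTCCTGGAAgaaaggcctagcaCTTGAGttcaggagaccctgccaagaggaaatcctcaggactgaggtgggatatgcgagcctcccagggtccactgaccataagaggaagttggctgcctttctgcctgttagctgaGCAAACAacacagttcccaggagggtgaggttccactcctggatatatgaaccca
Bpifa1 (chr2:154142630-154142879, plus strand): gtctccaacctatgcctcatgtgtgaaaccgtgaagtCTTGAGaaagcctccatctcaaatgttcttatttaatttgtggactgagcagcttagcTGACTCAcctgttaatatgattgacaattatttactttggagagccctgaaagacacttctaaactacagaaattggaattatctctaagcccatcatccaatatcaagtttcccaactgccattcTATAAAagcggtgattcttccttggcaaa
Bpifb1 (chr2:154190568-154190817, plus strand): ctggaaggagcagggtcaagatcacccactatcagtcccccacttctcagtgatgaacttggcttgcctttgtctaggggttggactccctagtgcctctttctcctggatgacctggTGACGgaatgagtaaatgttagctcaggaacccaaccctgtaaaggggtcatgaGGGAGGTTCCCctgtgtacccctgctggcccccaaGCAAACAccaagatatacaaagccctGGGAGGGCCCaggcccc
Reg3g (chr6:78468875-78469124, minus strand): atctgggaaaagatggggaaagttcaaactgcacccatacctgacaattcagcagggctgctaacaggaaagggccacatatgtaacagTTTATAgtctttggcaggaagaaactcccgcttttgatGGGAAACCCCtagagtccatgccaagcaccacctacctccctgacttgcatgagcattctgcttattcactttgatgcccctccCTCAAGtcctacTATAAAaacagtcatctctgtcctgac
Agr2 (chr12:35992675-35992924, plus strand): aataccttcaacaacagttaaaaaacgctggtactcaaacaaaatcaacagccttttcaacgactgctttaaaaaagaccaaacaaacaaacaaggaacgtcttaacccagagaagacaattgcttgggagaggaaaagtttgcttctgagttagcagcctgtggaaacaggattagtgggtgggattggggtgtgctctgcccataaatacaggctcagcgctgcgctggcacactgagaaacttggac
The motifs, searched on both strands, were a TATA box (TATAAA), FOXA (TGTTTAC or TGTTTGC), NKX2-1 (CTCAAG), STAT (TTCNNNGAA), NF-kB (GGGA and CC with any 4 bases between), AP-1 (TGANTCA), HIF (ACGTG) and a CRE half-site (TGACG). NF-kB matches that overlap each other form a single run of capitals in Bpifb1. Table entries were found for 6 of the 10 genes (these 5 and Spdef). The NKX2-1 letters were present in 4 of the 6 (Scgb3a1, Bpifa1, Reg3g and Spdef), against 13.3% of all 32851 promoters. The NF-kB letters were in 3 of the 6 (Bpifb1, Reg3g and Spdef), against 17.6% of all, and the FOXA letters in 2 (Scgb3a1 and Bpifb1), against 7.29%. A TATA box stood 29 bases before the start of Bpifa1 and 27 bases before that of Reg3g. Reg3g also had a match on the other strand, 161 bases before its start. Anywhere in the 250 bases and on either strand, these letters were found in 12.4% of all promoters. The STAT letters (7.02% of all) were only in Scgb3a1 and the AP-1 letters (6.75%) only in Bpifa1 among the 6. The HIF letters (16.6%) were only in Spdef, and the CRE half-site (17.8%) in Bpifb1 and Spdef. The window of Agr2 held none of these letters.

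The genes did not move as a block. In BLM+HBO against BLM, 1 gene was called higher (Scgb1a1) and 3 lower (Agr2, Reg3g and Bpifb1), and the other 6 did not pass. This is 4 of 10, where 6.29% of all tested genes were called, 3.4% of them higher and 2.89% lower. The estimates were positive for Scgb1a1, Scgb3a2 and Spdef and negative for the other 7, with a median log2 fold change of -0.92 over the 10 genes and 0.01 over all tested genes. None of the 10 had an adjusted P below 0.05 by edgeR or DESeq2. DESeq2 called 5 of the 10 at the unadjusted thresholds, against 6.72% of all genes. The ranges of the groups overlapped for every one of the 10, whereas they were apart for 8.76% of tested genes. In bulk tissue, fewer cells of a type and less RNA per cell cannot be told apart.

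Without BLM+HBO 2, 7 of the 10 were called, 2 higher and 5 lower, against 10.7% of genes tested then. The groups no longer overlapped for Scgb1a1, Scgb3a1, Scgb3a2, Bpifa1, Reg3g and Agr2, 6 of 10, against 25.1% of all genes. This mouse was picked out in these same counts for its nearness to the BLM mice. Leaving it out therefore tends to part the groups for many genes, and the values without it, here and below, are no separate support. Leaving out BLM+HBO 3 instead left 1 of the 10 called, and 881 genes in all.

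**Figure D1:**
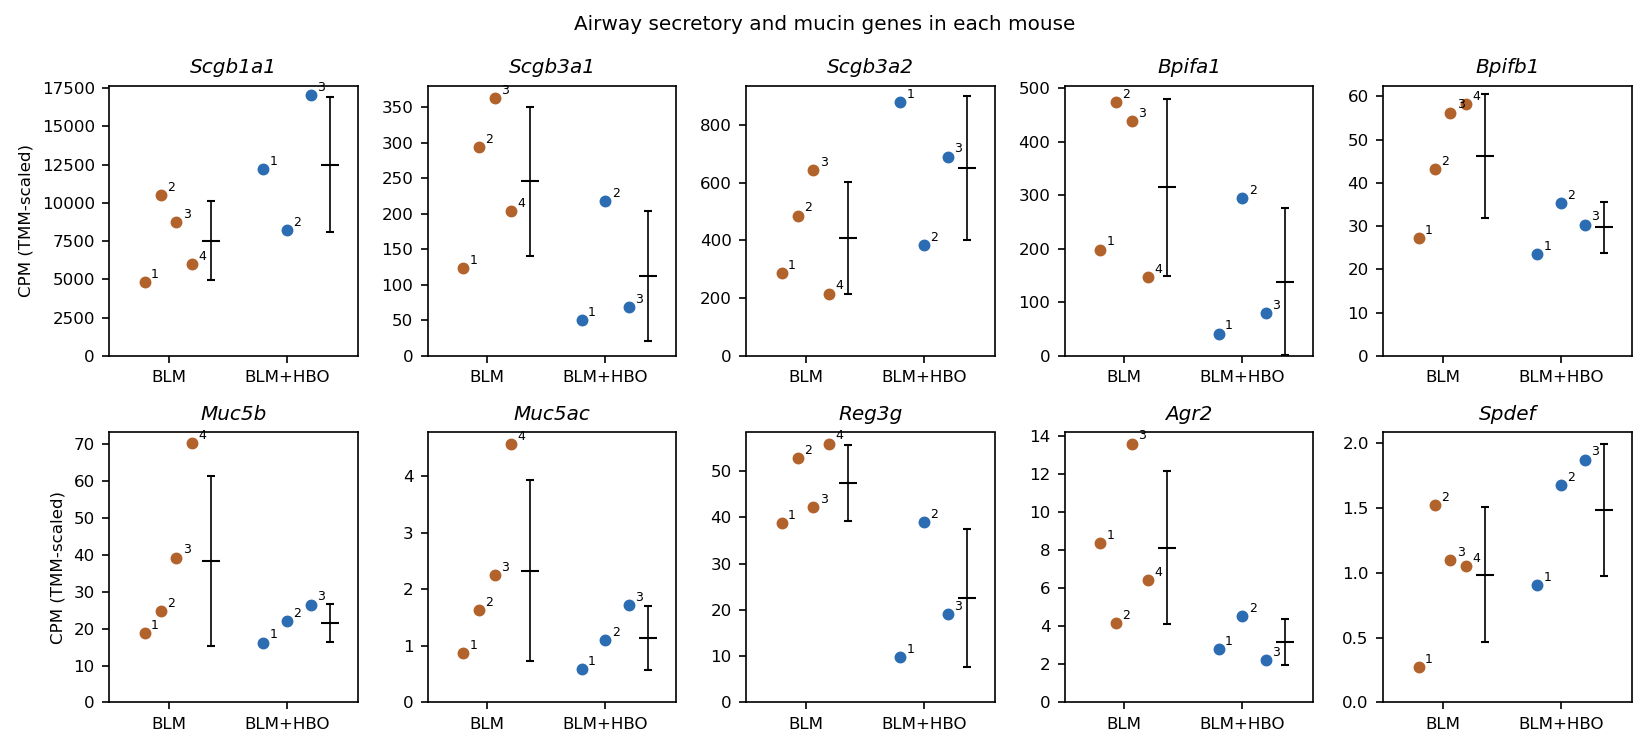
Level of each of the 10 genes in each mouse, in CPM with TMM factors on a linear axis from 0 (points, numbered by mouse), with the mean and SD of each group as a bar (n = 4 BLM, n = 3 BLM+HBO). For Scgb3a1, Bpifa1 and Reg3g, BLM+HBO 1 and 3 lie under every BLM mouse and BLM+HBO 2 lies within the BLM range.

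**Figure D2:**
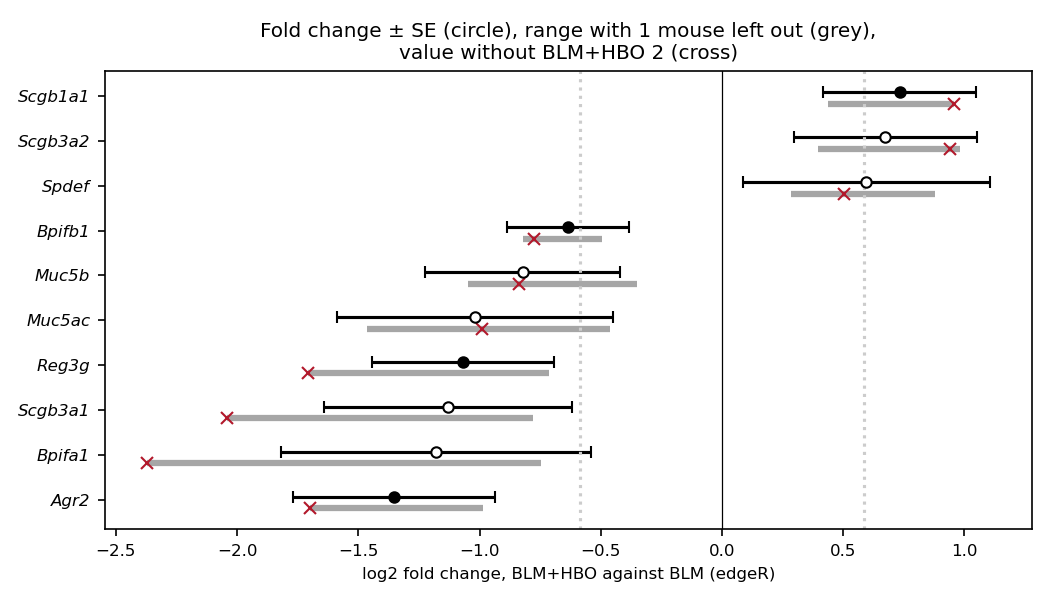
Log2 fold change of each gene, BLM+HBO against BLM, with its SE (circles, filled where the unadjusted thresholds are passed), the range when any 1 mouse is left out (grey) and the value without BLM+HBO 2 (cross); dotted lines mark a fold change of 1.5. No estimate changes sign, and those of Scgb3a1 and Bpifa1 move most, to -2.04 and -2.37 without BLM+HBO 2.

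Scgb1a1 (chr19:9083636-9087958, minus strand, GRCm38), the club cell secretory protein CC10, had the highest level per length of all genes in every mouse, with a mean of 15816 RPKM (reads scaled by exon length and library size) in BLM and 26272 in BLM+HBO. It stood at 4837, 10529, 8734 and 6014 CPM in BLM 1 to 4, and at 12230, 8251 and 17035 CPM in BLM+HBO 1 to 3. BLM+HBO 1 and 3 were above every BLM mouse, while BLM+HBO 2 lay inside the BLM range. The means were 7528 ± 2581 CPM (SD, n = 4) and 12505 ± 4399 CPM (SD, n = 3). The log2 fold change was 0.73 (SE 0.32, unadjusted P = 0.0436, adjusted P = 0.461 by edgeR). The call held only when BLM 2 or BLM+HBO 2 was the mouse left out, and was lost on leaving out any other (BLM 1, BLM 3, BLM 4, BLM+HBO 1, BLM+HBO 3); the estimate ran from 0.44 without BLM+HBO 3 to 0.96 without BLM+HBO 2. Limma-trend gave an unadjusted P of 0.0909 and DESeq2 one of 0.0124.

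Scgb3a2 (chr18:43764289-43767399, plus strand), a secretoglobin of bronchiolar club cells, had the next highest level per length of the 10, with 464 RPKM in BLM and 740 RPKM in BLM+HBO. It measured 287, 487, 643 and 216 CPM in BLM and 879, 383 and 691 CPM in BLM+HBO. As for Scgb1a1, BLM+HBO 1 and 3 were the highest of the 7 mice and BLM+HBO 2 fell among the BLM mice. Its log2 fold change of 0.67 did not pass (SE 0.38, unadjusted P = 0.106, adjusted P = 0.549 by edgeR). It was called without BLM 3 (0.98) or BLM+HBO 2 (0.94), and was 0.40 without BLM+HBO 1.

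Scgb3a1 (chr11:49663610-49665118, plus strand), the secretoglobin of larger airways, had the opposite sign. It measured 123, 294, 363 and 204 CPM in BLM and 50.4, 218 and 68.9 CPM in BLM+HBO. BLM+HBO 1 and 3 were the lowest of the 7 mice, and BLM+HBO 2 exceeded BLM 1 and BLM 4. The means were 246 ± 105 CPM and 112 ± 91.6 CPM. The log2 fold change of -1.13 (SE 0.51, unadjusted P = 0.0523, adjusted P = 0.471 by edgeR) missed the threshold, while limma-trend called the gene (unadjusted P = 0.0231). It became a call without BLM 1, and without BLM+HBO 2 it was -2.04 with an adjusted P of 0.0436, the lowest over the alternatives (highest 0.802).

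Bpifa1 (chr2:154142880-154149219, plus strand) encodes SPLUNC1, a secreted protein that regulates airway surface liquid and restrains bacteria. It measured 199, 475, 439 and 148 CPM in BLM and 41.7, 296 and 79.9 CPM in BLM+HBO. The pattern was that of Scgb3a1, with BLM+HBO 1 and 3 below every BLM mouse and BLM+HBO 2 inside their range. Its log2 fold change of -1.18 did not pass (SE 0.64, unadjusted P = 0.0954, adjusted P = 0.541 by edgeR), while limma-trend called it (unadjusted P = 0.0373). Without BLM+HBO 2 it was -2.37 and was called, with an adjusted P of 0.0588, the lowest over the alternatives (highest 0.828). Without BLM+HBO 1 it was -0.75.

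Bpifb1 (chr2:154190818-154220369, plus strand), the long BPI-fold protein of mucous cells, starts 41599 bases after the end of Bpifa1. It measured 27.2, 43.2, 56.3 and 58.3 CPM in BLM and 23.6, 35.3 and 30.4 CPM in BLM+HBO. BLM 1 lay within the BLM+HBO range and the other BLM mice above it. The gene was called lower, with a log2 fold change of -0.64 (SE 0.25, unadjusted P = 0.0310, adjusted P = 0.441 by edgeR), close to the fold limit. The call was lost without BLM 3 (-0.53) or BLM 4 (-0.50), and also when BLM+HBO 1 (-0.49) or BLM+HBO 3 (-0.65) was left out.

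Reg3g (chr6:78466269-78468872, minus strand) encodes a C-type lectin that kills Gram-positive bacteria and is induced in airway epithelium by inflammatory cytokines. It measured 38.8, 52.9, 42.2 and 55.9 CPM in BLM, a narrow range, and 9.83, 39.0 and 19.1 CPM in BLM+HBO. Only BLM+HBO 2 reached the BLM mice, exceeding BLM 1 by a small margin. The means were 47.5 ± 8.26 CPM and 22.6 ± 14.9 CPM, and the log2 fold change was -1.07 (SE 0.37, unadjusted P = 0.0180, adjusted P = 0.423 by edgeR). The call was lost without BLM+HBO 3 (-0.96, unadjusted P = 0.0629 by edgeR). Without BLM+HBO 2 the value was -1.71, with an adjusted P of 0.0308. Over the alternatives the adjusted P by edgeR lay between 0.0156 and 0.802. The lowest came with no filter on low counts, where 387 genes in all fell below 0.05, and the highest without BLM+HBO 1.

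Muc5b (chr7:141839070-141873084, plus strand) measured 18.8, 24.7, 39.3 and 70.5 CPM in BLM and 16.2, 22.1 and 26.5 CPM in BLM+HBO. BLM 3 and BLM 4 were above every BLM+HBO mouse, and BLM 1 and BLM 2 were among them. The log2 fold change of -0.82 did not pass (SE 0.40, unadjusted P = 0.0697, adjusted P = 0.501 by edgeR). BLM 4 carried much of it: the value was -0.35 without that mouse. It was called without BLM 1 (-1.05) or BLM 2 (-0.98), and by DESeq2 with all mice (unadjusted P = 0.0310).

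Muc5ac (chr7:141788972-141819231, plus strand), whose end lies 19839 bases before the start of Muc5b, had the lowest level per length of the 10 genes, at 0.217 RPKM in BLM and 0.106 RPKM in BLM+HBO. It was read 16, 29, 41 and 87 times in BLM and 11, 23 and 46 times in BLM+HBO, which is 0.880, 1.63, 2.25 and 4.57 CPM against 0.585, 1.10 and 1.72 CPM. As for Muc5b, BLM 4 was the highest mouse and BLM+HBO 1 the lowest. The log2 fold change of -1.02 did not pass (SE 0.57, unadjusted P = 0.106, adjusted P = 0.549 by edgeR), was -0.46 without BLM 4, and was called without BLM 1 (-1.29). The difference was not larger than the spread between mice.

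Agr2 (chr12:35992907-36004087, plus strand), a disulfide isomerase of the endoplasmic reticulum needed to fold mucins, measured 8.36, 4.17, 13.6 and 6.42 CPM in BLM and 2.82, 4.54 and 2.21 CPM in BLM+HBO. The groups overlapped only through BLM 2, which was below BLM+HBO 2. The means were 8.13 ± 4.02 CPM and 3.19 ± 1.21 CPM. The log2 fold change of -1.35 had the lowest unadjusted P of the 10 genes (SE 0.42, unadjusted P = 0.00916, adjusted P = 0.423 by edgeR). It was called whichever mouse was left out, between -0.99 without BLM 3 and -1.70 without BLM+HBO 2. Its adjusted P by edgeR was lowest with no filter on low counts (0.0319), where 387 genes in all fell below 0.05. It was highest without BLM+HBO 1 (0.802).

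Spdef (chr17:27714352-27728955, minus strand), the factor that drives goblet cell differentiation, was read 5, 27, 20 and 20 times in BLM and 17, 35 and 50 times in BLM+HBO. These counts are 0.275, 1.52, 1.10 and 1.05 CPM against 0.904, 1.67 and 1.87 CPM. BLM 1 was the lowest mouse and the groups overlapped. Its log2 fold change of 0.60 did not pass (SE 0.51, unadjusted P = 0.271, adjusted P = 0.699 by edgeR) and did not pass whichever mouse was left out.

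Scgb1a1 set the share of the library that these genes took. The 10 genes together took 0.546%, 1.15%, 1.02% and 0.678% of the counts in BLM and 1.37%, 0.938% and 1.82% in BLM+HBO, with means of 0.848% ± 0.283 (SD, n = 4) and 1.38% ± 0.440 (SD, n = 3). Scgb1a1 alone made up 84.5% to 88.7% of these counts in BLM and 89.2% to 94.9% in BLM+HBO. Without it the remaining 9 genes took 0.109% ± 0.0433 and 0.100% ± 0.00649 of the library, and the difference of -0.00900 percentage points was smaller than the spread between mice. Without Scgb3a2 as well, the other genes took 0.0410%, 0.0864%, 0.0945% and 0.0549% in BLM and 0.0151%, 0.0626% and 0.0234% in BLM+HBO. Here too BLM+HBO 1 and 3 were the lowest and BLM+HBO 2 was within the BLM range.

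**Figure D3:**
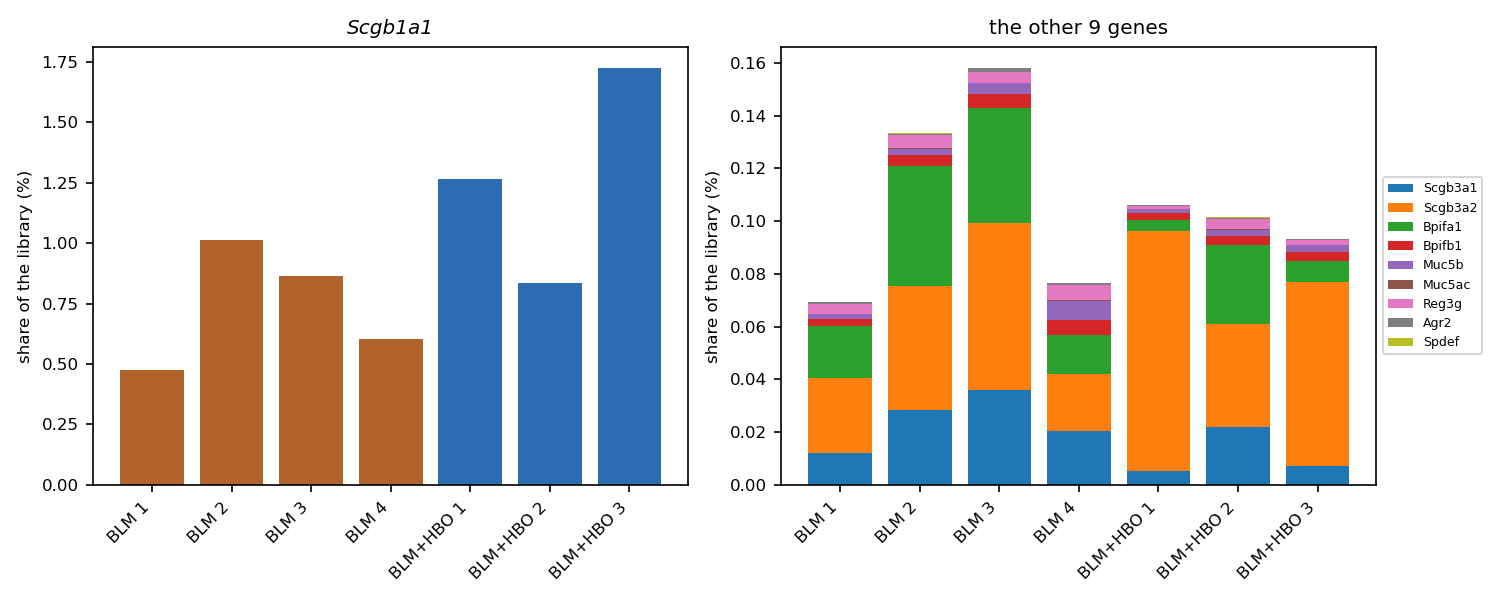
Share of the library in each mouse, in percent of all counts, taken by Scgb1a1 (left, bars coloured by group) and by the other 9 genes (right, stacked by gene, on a finer axis). Scgb1a1 takes 0.477% to 1.73% of a library, and Scgb3a2 fills most of the remainder in BLM+HBO 1 and 3.

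The genes were also read against Scgb1a1, the most abundant club cell transcript of the same library. Per 1000 Scgb1a1 reads, 2 of the other 9 genes had groups that did not overlap, both lower in BLM+HBO, where 6.3% of all tested genes were lower without overlap under the same ratio. Reg3g gave 4.83 to 9.30 reads in BLM and 0.804 to 4.73 in BLM+HBO, and Muc5ac 0.155 to 0.761 and 0.0478 to 0.133. The other 7 overlapped. Means in BLM and BLM+HBO were 32.2 and 11.5 reads for Scgb3a1, 40.3 and 14.6 for Bpifa1, 6.46 and 2.66 for Bpifb1, 5.61 and 1.86 for Muc5b, and 1.19 and 0.303 for Agr2. Scgb3a2 gave 53.8 ± 16.4 reads in BLM and 53.0 ± 16.6 in BLM+HBO, and Spdef 0.125 and 0.129. The denominator was itself higher in BLM+HBO, which lowers every ratio there, and the ratios were not tested.

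From mouse to mouse, some of the genes varied together. Over the 7 mice, which share library and depth between genes, the log2 CPM of Muc5b and Muc5ac had a Pearson r of 0.97 (0.96 after subtracting group means), and that of Bpifb1 had an r of 0.88 with Muc5b and 0.89 with Muc5ac. Scgb3a1 and Bpifa1 had an r of 0.95 (0.91 within groups), and Reg3g had an r of 0.89 with Scgb3a1 and 0.85 with Bpifa1. The neighbours Bpifa1 and Bpifb1 were less alike, with an r of 0.63 (0.40 within groups). Bpifb1 also had an r of 0.83 with Scgb3a1 (0.71 within groups) and 0.76 with Reg3g (0.56 within groups). For Scgb1a1 and Spdef r was 0.71 (0.62 within groups). Scgb1a1 and Scgb3a2 had an r of 0.83 (0.76 within groups), and Scgb1a1 and Agr2 one of -0.73 (-0.48 within groups). These are descriptions of 45 pairs.

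**Figure D4:**
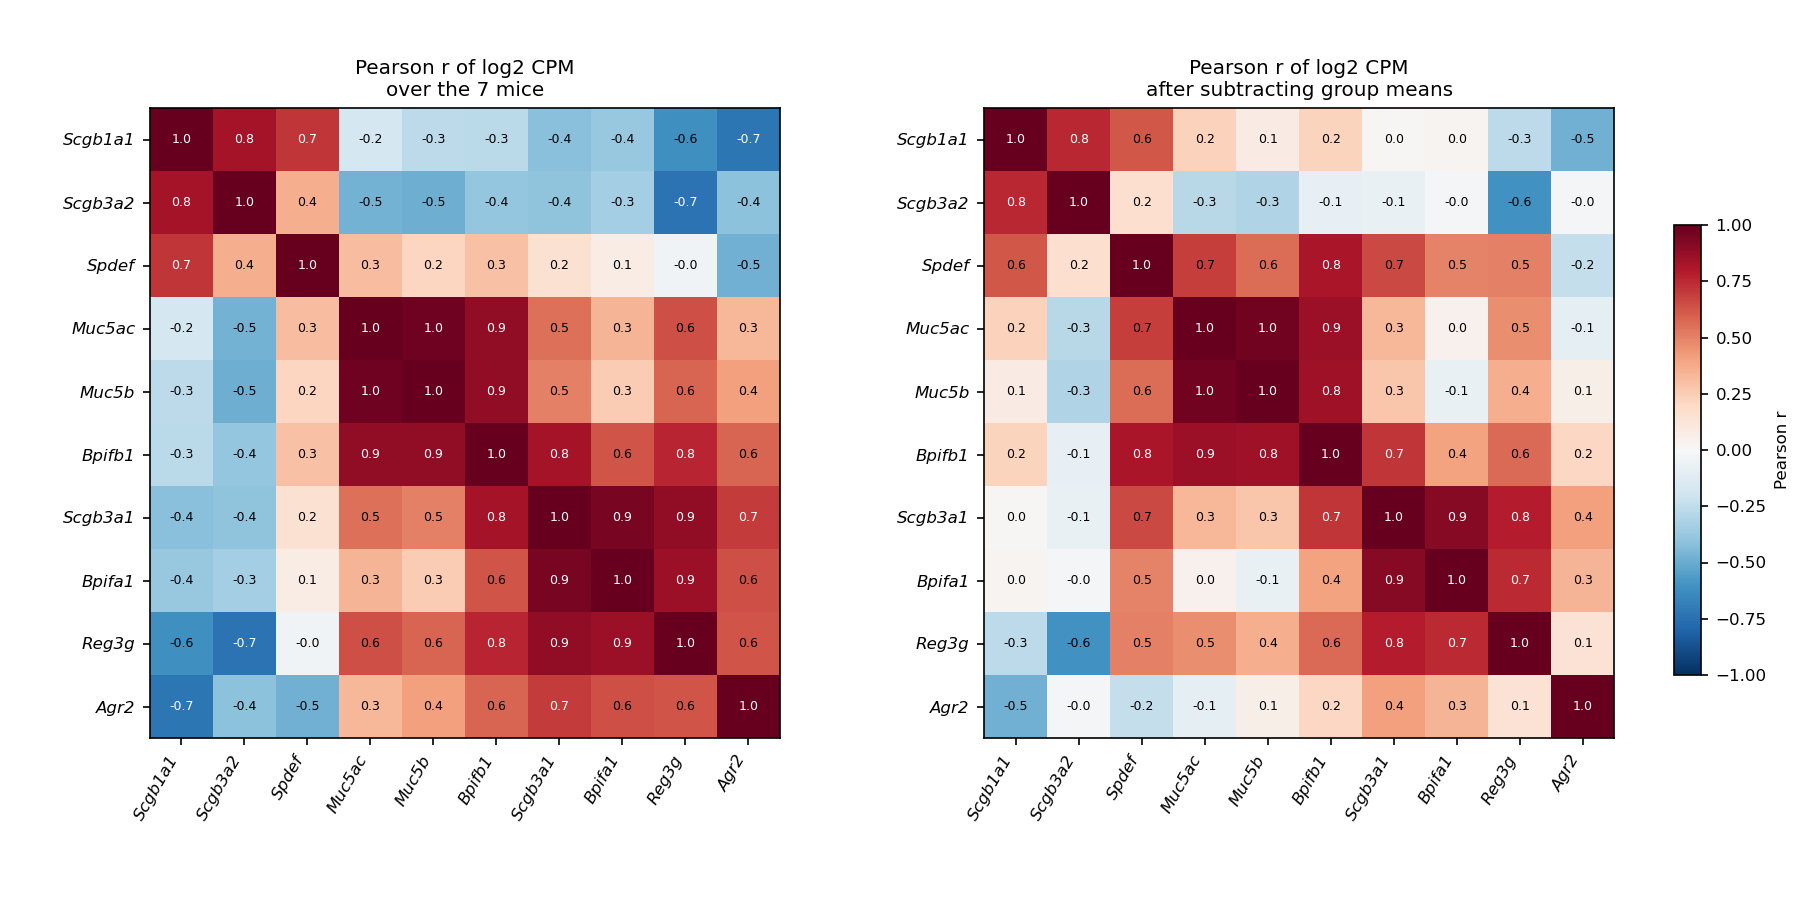
Pearson r of log2 CPM between the 10 genes over the 7 mice (left) and after subtracting the group means (right), from -1 (blue) to 1 (red). Muc5ac, Muc5b and Bpifb1 stand together, as do Scgb3a1, Bpifa1 and Reg3g, and Scgb1a1 pairs with Scgb3a2. These sets are not separate, since Bpifb1 also has an r of 0.83 with Scgb3a1 and 0.76 with Reg3g.

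The genes most like 4 of these over the 7 mice were sought among 12561 genes with at least 5 CPM. For Scgb1a1 they were Reep6 (r = 0.99), Cyp2f2 (r = 0.98), a club cell cytochrome P450, and 2610528J11Rik (r = 0.98). For Muc5b they were Ogfod3 (r = 0.96), Lipe and Dnajc11 (both r = 0.94), for Reg3g Wbp1l, Chd4 (both r = 0.99) and Fam20c (r = 0.98), and for Bpifa1 Gm13835, 9530068E07Rik (both r = 0.99) and Grwd1 (r = 0.98). Of these 12 genes Reep6 and Cyp2f2 were called, both higher. The r values are the highest among 12561 genes over only 7 mice, a choice that favours high values, and were not tested.

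Among other club cell genes, a list of 20 enzymes and surface genes, 7 of 19 tested were called higher in BLM+HBO and 0 lower, where 3.4% of all genes were called higher. The other 12 did not pass. In all 16 estimates were positive and 3 negative, and the median log2 fold change was 0.51. Cbr2, a carbonyl reductase, measured 382, 870, 803 and 518 CPM in BLM and 2184, 800 and 2266 CPM in BLM+HBO (log2 fold change 1.44, SE 0.38). Cyp2f2 measured 311, 736, 500 and 377 CPM in BLM and 974, 578 and 1651 CPM in BLM+HBO (1.15, SE 0.36). For both genes BLM+HBO 2 again lay inside the BLM range. Cyp2a5 (1.05), Cckar (0.93), Aldh1a7 (0.85), Gsta3 (0.73) and Aldh1a1 (0.67) were the others called. Cbr2 and Aldh1a7 were called whichever mouse was left out. Cyp2f2 (0.68) and Cckar (0.57) lost the call without BLM+HBO 3, Gsta3 (0.46) and Aldh1a1 (0.44) lost it without BLM+HBO 1, and Cyp2a5 lost it when BLM 1, BLM 3, BLM+HBO 1 or BLM+HBO 2 was left out and by DESeq2. The number called ran from 4 without BLM+HBO 1 to 9 without BLM+HBO 2.

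Goblet cell and mucus granule genes were mostly low, and mixed. Of 18 listed, 11 were tested, 1 was called higher and 2 lower, and the median log2 fold change was -0.10. By comparison, 3.4% of all tested genes were called higher and 2.89% lower. In all, 5 estimates were positive and 6 negative, from -1.20 (Slc5a9) to 1.51 (Clca1, SE 0.76, not called). Slc26a4, among the more abundant of the list, did not pass (-0.45, SE 0.33). Agr3, a paralog of Agr2 found in ciliated cells, measured 3.96, 3.21, 4.93 and 2.58 CPM in BLM and 8.08, 5.07 and 6.59 CPM in BLM+HBO, without overlap and opposite in sign to Agr2 (log2 fold change 0.84, SE 0.28). Creb3l1, a transcription factor of secretory cells that is also active in collagen-producing fibroblasts, measured 47.9, 40.5, 39.3 and 38.8 CPM in BLM and 16.1, 31.3 and 30.6 CPM in BLM+HBO (-0.68, SE 0.22). Slc5a9 (-1.20) was called lower at under 1.2 CPM in every mouse, and the call was lost by DESeq2 and when BLM 1, BLM 3, BLM 4, BLM+HBO 1 or BLM+HBO 2 was left out; the value was -1.91 when BLM+HBO 3 was. Agr3 and Creb3l1 (-0.43) lost the call when BLM+HBO 1 was left out. The count of calls was 6 with no filter on low counts, where the share of all genes called is not given here, and 2 without BLM 4 or BLM+HBO 1. Tff1, Itln1 and Foxa3 were read at most 14 times in any mouse and were not tested over the 7 mice. Without BLM+HBO 2, Itln1 passed the filter on low counts through the BLM mice alone, being at 0 CPM in BLM+HBO 1 and 3. Its log2 fold change of -6.38 was then set by these zeros and measures no size of effect.

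Of 9 membrane and other mucins, 5 were tested and 1 was called, where 6.29% of all tested genes were. Muc20 was higher (log2 fold change 0.66, SE 0.27), and this call was lost on leaving out BLM 1, BLM 2, BLM+HBO 1 or BLM+HBO 3. Muc1, a transmembrane mucin of alveolar and airway cells, measured 228 ± 70.0 CPM and 261 ± 102 CPM (0.20), and Muc4 measured 53.7 ± 19.1 CPM and 57.5 ± 8.76 CPM (0.10). Of 23 other secretoglobin, BPIF and REG genes, 3 were tested and 0 called by edgeR, 0 of them with an unadjusted P below 0.05, and 5 had no read in any mouse. DESeq2 also called 0 and limma-trend 1.

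The secreted airway defence genes were called in both directions, 2 of 17 tested higher and 3 lower, with a median log2 fold change of -0.47. Among all tested genes, 3.4% were called higher and 2.89% lower. Slpi, a protease inhibitor of airway secretions, measured 169, 132, 130 and 61.9 CPM in BLM and 42.8, 43.1 and 52.8 CPM in BLM+HBO (log2 fold change -1.41, SE 0.28). Ltf, the iron-binding lactoferrin, measured 108, 141, 151 and 150 CPM in BLM and 72.8, 98.6 and 64.4 CPM in BLM+HBO (-0.81, SE 0.17). Both groups were apart for these genes, BLM+HBO 2 included. Dmbt1, a scavenger receptor protein of mucus, measured 1.15, 2.48, 1.70 and 10.1 CPM in BLM and 0.585, 0.430 and 0.337 CPM in BLM+HBO (-3.11, SE 0.80), and the value was -1.98 when BLM 4 was left out. Pigr, which carries IgA across epithelium, measured 16.1, 21.4, 29.4 and 32.9 CPM in BLM and 39.5, 37.9 and 54.8 CPM in BLM+HBO (0.82, SE 0.24). Lyz1, a lysozyme also made by alveolar type 2 cells, was called higher (1.56, SE 0.54), but not when BLM+HBO 1 was left out (0.75). Slpi and Ltf are also made by neutrophils. Of 12 tested neutrophil and eosinophil genes 0 were called higher and 1 lower (7 called when BLM+HBO 1 was left out, 3 for BLM 3 or BLM+HBO 2, and 0 for BLM 1 or BLM+HBO 3), with a summed level of 192 to 266 CPM in BLM and 119 to 601 CPM in BLM+HBO. The part of these cells in the result was not tested.

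The regulators of secretory fate moved little. Of 18 tested, Sox9 was called lower (log2 fold change -1.20, lost without BLM 1, BLM+HBO 1 or BLM+HBO 3), 0 were called higher, and the median was 0.16. Nkx2-1 (0.41), Foxa2 (0.29) and Foxa1 (0.39), which maintain airway epithelial identity, did not pass. Of 23 cytokines and receptors of mucous metaplasia, 16 were tested, 0 were called higher and 2 lower. Over all tested genes, 3.4% were called higher and 2.89% lower. Il4ra, the receptor chain shared by IL-4 and IL-13, measured 349, 348, 317 and 381 CPM in BLM and 158, 285 and 210 CPM in BLM+HBO, without overlap (-0.68, SE 0.18). Ereg, an EGF receptor ligand, was called lower as well (-1.83, SE 0.60), and only Ereg of the list was called when BLM+HBO 1 was left out. Il13, Il17a, Il22 and Il25 each had a mean of at most 0.167 CPM in either group and were not tested.

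**Figure D5:**
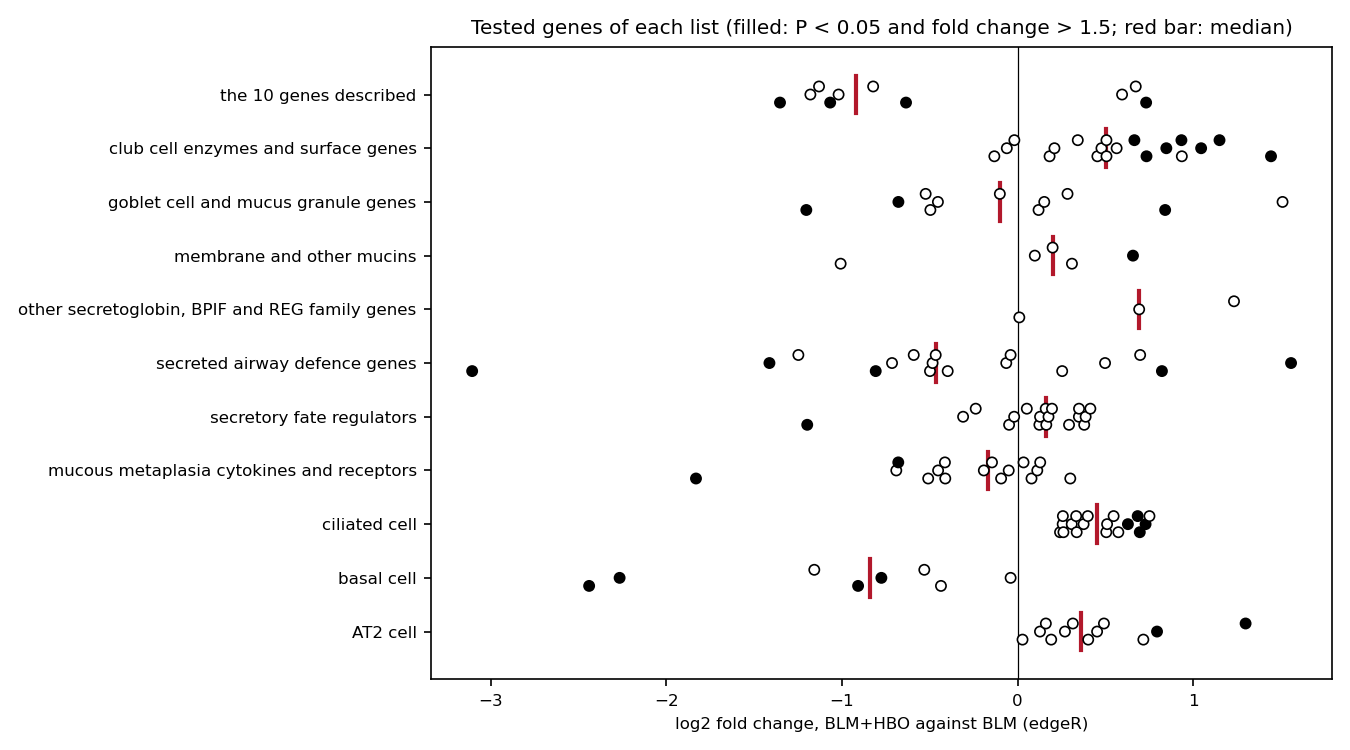
Log2 fold change, BLM+HBO against BLM, of each tested gene of 10 gene lists and of the 10 genes described (circles, filled where the unadjusted thresholds were passed; red bar, median of the list). Club and ciliated cell genes lie mostly to the right of 0 (medians 0.51 and 0.45) and basal cell genes to the left (median -0.84). All 12 alveolar type 2 genes also lie to the right (median 0.36).

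Other cell types of the same epithelium are given beside these values. Of all 17465 tested genes, 8942 had positive and 8523 negative estimates, and 3.4% were called higher and 2.89% lower. All 18 tested ciliated cell genes had positive estimates and 4 were called higher, namely Tekt4, Rsph4a, Ccdc39 and Spag6l (median log2 fold change 0.45). The summed level of the list was 299 to 598 CPM in BLM and 433 to 596 CPM in BLM+HBO, so the groups overlapped, and the number called ran from 1 (leaving out BLM 2, BLM+HBO 1 or BLM+HBO 3) to 13 without BLM 3. All 8 tested basal cell genes had negative estimates and 4 were called lower: Krt14 (-2.44), Krt5 (-2.27), Aqp3 (-0.91) and Trp63 (-0.78). Their summed level was 12.9 to 18.1 CPM in BLM and 6.40 to 10.99 CPM in BLM+HBO, without overlap, and 0 were called without BLM+HBO 3, 1 without BLM 4 or BLM+HBO 1 and 2 without BLM 2 or BLM 3. Counts were low, with Krt14 read at most 131 times and Krt5 at most 37 times in any mouse. Of 10 tested neuroendocrine, tuft and ionocyte genes, Cftr was called higher (1.06) and Calca lower (-1.37), with 1 called when BLM 1 or BLM+HBO 1 was left out, 3 for BLM 3 and 4 for BLM+HBO 2.

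All 12 alveolar type 2 genes had positive estimates (median log2 fold change 0.36). Hc and Sftpa1 were called higher, where 3.4% of all tested genes were called higher and 2.89% lower. The number called was 6 when BLM+HBO 2 was left out, 1 when BLM+HBO 1 was, and 0 when BLM 1, BLM 3 or else BLM+HBO 3 was. Of 12 alveolar type 1 genes 0 were called by edgeR (median 0.11), and DESeq2 and limma-trend also called 0. Of 12 pan-epithelial genes Cldn4 was called lower (-0.83, lost when BLM+HBO 1 or 3 was left out) and 0 higher, and the summed level was 4283 to 6155 CPM in BLM and 4257 to 7486 CPM in BLM+HBO. Cartilage genes, which mark the walls of large airways, were at 10.1 to 12.9 CPM in BLM and 7.76 to 14.8 CPM in BLM+HBO in sum, with 0 of 4 tested called by edgeR, DESeq2 or limma-trend. Of 12 fibroblast genes 2 were called higher and 6 lower, and the number called ran from 2 (BLM 1 or BLM+HBO 1 left out; 3 with BLM+HBO 3 left out) to 11 (BLM+HBO 2 left out). The part of these cell types in the levels of the 10 genes was not tested.

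When BLM+HBO 2 was left out, 946 genes were called higher and 968 lower, together 10.7% of those tested then. The filter on low counts was applied anew, so the genes tested in a list could differ. Itln1 was then tested, and its value, set by zeros in BLM+HBO, enters the goblet cell median given next. Of the lists, club cell genes then had 9 called higher and 0 lower (median log2 fold change 0.77), goblet cell genes 1 and 2 (-0.28), membrane mucins 1 and 1, the other secretoglobin, BPIF and REG genes 1 and 0, defence genes 2 and 5 (-0.59), fate regulators 0 and 1 (0.26) and the metaplasia cytokines and receptors 0 and 2 (-0.26). Ciliated cell genes had 7 and 0 (0.57), basal cell genes 0 and 4 (-1.04), the neuroendocrine, tuft and ionocyte genes 1 and 3 (-0.50), alveolar type 2 genes 6 and 0 (0.62), alveolar type 1 genes 0 and 0 (0.12), pan-epithelial genes 0 and 1 (-0.07), cartilage genes 0 and 0 (-0.23), heart muscle genes 10 and 0, neutrophil and eosinophil genes 2 and 1 and fibroblast genes 3 and 8 (-1.02). Among the genes named, Krt14 was then at -4.90, Ereg at -2.74, Sox9 at -1.87, Cldn4 at -1.36, Lyz1 at 1.99, Cbr2 at 1.79 and Cyp2f2 at 1.45 on the log2 scale. The value of Krt14 rests on 0.0531 and 0.225 CPM in BLM+HBO 1 and 3, near the floor. Slpi, at -1.37, and Ltf, at -1.01, were called with or without this mouse.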

How the data were processed

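Libraries were made by the authors with NEBNext Ultra and read as paired ends on a NovaSeq. After Trim Galore, reads were aligned by the authors to GRCm38 in HISAT2 2.2.0, and the authors made the deposited raw counts per gene with featureCounts (2.2.0 in the submitters' processing notes) at default settings, which ignore strand and drop multi-mapping reads and reads over several genes. The deposited exon length served for RPKM. Symbols came from GENCODE vM21 (55141 of 55401 genes), and promoters from RefSeq.

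Low genes were dropped by filterByExpr (count of at least 10, total of at least 15), and counts were scaled by TMM and tested with edgeR 4.0.16 (glmQLFit, glmQLFTest) under R 4.3.3, over all 17465 genes. Log2 CPM used a prior count of 2. Thresholds were those of the study. DESeq2 1.42.0, limma-trend (limma 3.58.1), RLE and upper-quartile factors, other filters, robust estimation, a replicate block, other limits and leaving out each mouse were tried. The tests were tested on simulated data. The ratios to Scgb1a1 were chosen after seeing the data.

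The genes and the 17 other lists were chosen with earlier results of these data known, and 3 genes stand on more than a single list. Of each list, called genes and up to 4 of the most abundant others could be named. Foxa1, Foxa2, Foxa3, Tff1, Itln1, Clca1, Il13, Il17a, Il22 and Il25 were named outside this rule, after their values were seen.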

Additional observations from a re-analysis of the deposited data

Results flagged for a closer look

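A single mouse stood far from its group in 2 of 29 sets of values examined with Dixon's test at 95%, which chance alone flags in about 1 of 20 groups. The summed level of the secreted airway defence genes was 1665 CPM in BLM 1 and close together in the other BLM mice, the highest at 2686 CPM, so that the gap to the nearest was 0.929 of the whole range. The summed level of the alveolar type 2 genes was likewise low in BLM 1, at 10613 CPM with 19242 CPM as the highest of the group, and the gap was 0.832 of the range. BLM 1 also had the lowest Scgb1a1, Scgb3a1, Bpifb1, Muc5b, Muc5ac, Reg3g and Spdef of the BLM mice. No reason for this was tested.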

How the results depend on the processing

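No estimate of the 10 genes changed sign under any alternative. With no filter on low counts 1940 genes were called, out of every gene with a read, a larger set whose size is not given here. Of the 17465 genes tested above, 319 were called at an unadjusted P below 0.01 and 509 at a fold change above 2. Leaving out 1 mouse gave from 659 (without BLM+HBO 1) to 1914 (without BLM+HBO 2, 10.7% of 17879), with 706 without BLM 1. Of the 10 genes, 1 was called at P below 0.01 and 2 at a fold change above 2. With no filter 9 were called, which cannot be set against a share of all genes here. Leaving out 1 mouse gave from 1 (without BLM+HBO 3, with 881 genes called in all) to 7 (without BLM+HBO 2, with 1914 in all). It gave 2 without BLM 4 (1220 in all) or BLM+HBO 1 (659 in all). At adjusted P below 0.05, DESeq2 gave 128 genes and edgeR with no filter 387, and leaving out 1 mouse gave from 0 to 267 (without BLM+HBO 2). The difference in summed share was -0.00900 points without Scgb1a1, and from 0.307 (without BLM+HBO 3) to 0.748 (without BLM+HBO 2) when 1 mouse was left out. The cause of these shifts was not tested, apart from the fewer samples or other set of genes that each alternative brings. Whether the replicate numbers pair the mice cannot be settled from so few mice. Same-numbered mice deviated with an r of -0.00797, -0.0660 and 0.161. Pairs with different numbers ran from -0.179 (BLM 1 and BLM+HBO 3) to 0.165 (BLM 1 and BLM+HBO 2). With a replicate block 1258 genes were called, 4 of the 10 genes (0 higher; Scgb3a1, Bpifa1, Reg3g and Agr2 lower), and 0 genes had an adjusted P below 0.05. Muc5ac and Spdef, read at most 87 and 50 times, carry the most counting error.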
